A study of Mus musculus with 16 samples.

Results

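Transcripts of 9 enzymes that make serine and pass its carbon through folate were followed in naive mouse CD4+ T cells 24 h after stimulation. For each enzyme the probe that carries its symbol alone in the array's probe table was taken, and each of the 9 had exactly 1 such probe among the 19938 genes with a probe of this kind. All 9 were among the 16427 genes tested. Phgdh, Psat1 and Psph encode the steps of serine synthesis, Shmt1 and Mthfd1 the cytosolic folate enzymes, and Shmt2, Mthfd1l, Mthfd2 and Aldh1l2 the mitochondrial ones.

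CD4+CD62LhiCD25- cells had been sorted out of B6 spleens and lymph nodes. They came from wild-type mice (WT) or from mice with a knockout (KO) of DEC1, a basic helix-loop-helix transcription factor encoded by Bhlhe40. They were cultured at 1000000 cells per ml in DMEM with 10% fetal bovine serum, with antibody-coated latex beads. Beads with anti-CD3 trigger the antigen receptor alone, and beads that also carry anti-CD28 trigger the costimulatory receptor CD28 beside it. The 4 groups, WT_CD3, WT_CD3CD28, KO_CD3 and KO_CD3CD28, had 4 arrays each. No unstimulated cells were among the 16 arrays, so each comparison is between stimuli or between genotypes. Neither the deleted part of Bhlhe40, the age of the mice, nor whether replicates came from separate animals is given in the sources used here, and p-values measure only the spread among these samples, which may be in part technical.

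Serine synthesis branches from glycolysis: Phgdh oxidises 3-phosphoglycerate, Psat1 transaminates the product and Psph removes the phosphate. Serine hydroxymethyltransferases (Shmt1 in the cytosol, Shmt2 in mitochondria) pass a one-carbon unit from serine to tetrahydrofolate and release glycine. Mitochondria oxidise the unit to formate through Mthfd2 and Mthfd1l, and the cytosol takes formate up again through Mthfd1 for the synthesis of purines and thymidylate. Activated T cells are known to draw on this route while they grow and divide.

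Because most of these genes moved together, the stretches before their start sites were searched for shared letters. RefSeq's promoter table (build GRCm38.p6) held 9 windows for 8 of the genes, with 2 for Psat1; Aldh1l2 was not matched. The 250 bases before the start site are shown for 2 serine synthesis genes and 2 mitochondrial folate genes, 5′ to 3′ on the gene's strand. Capitals mark CCAAT or its reverse complement ATTGG, the core letters of the box that NF-Y binds.
Psat1, chr19:15925060-15925309, minus strand: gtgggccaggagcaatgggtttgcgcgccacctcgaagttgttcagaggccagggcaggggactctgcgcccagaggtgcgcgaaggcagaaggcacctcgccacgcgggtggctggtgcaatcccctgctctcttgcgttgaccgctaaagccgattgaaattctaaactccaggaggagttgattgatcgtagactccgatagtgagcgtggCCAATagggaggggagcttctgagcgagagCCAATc
Mthfd2, chr6:83317605-83317854, minus strand: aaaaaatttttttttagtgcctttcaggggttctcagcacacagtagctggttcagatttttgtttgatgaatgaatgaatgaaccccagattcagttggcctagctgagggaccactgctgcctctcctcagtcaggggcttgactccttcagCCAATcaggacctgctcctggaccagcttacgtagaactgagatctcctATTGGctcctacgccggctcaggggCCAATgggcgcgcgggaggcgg
Phgdh, chr3:98339970-98340219, minus strand: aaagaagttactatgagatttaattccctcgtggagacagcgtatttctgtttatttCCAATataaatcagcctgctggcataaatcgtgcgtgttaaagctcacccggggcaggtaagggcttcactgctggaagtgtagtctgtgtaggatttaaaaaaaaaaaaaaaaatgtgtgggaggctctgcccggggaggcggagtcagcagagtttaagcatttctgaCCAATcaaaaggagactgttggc
Shmt2, chr10:127522445-127522694, minus strand: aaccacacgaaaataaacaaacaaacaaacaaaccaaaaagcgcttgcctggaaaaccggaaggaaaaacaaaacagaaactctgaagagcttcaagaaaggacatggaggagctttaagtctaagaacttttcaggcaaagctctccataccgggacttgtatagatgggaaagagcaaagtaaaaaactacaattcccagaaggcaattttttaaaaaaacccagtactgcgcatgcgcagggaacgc
CCAAT was chosen for display after the sequences were seen. It stood on either strand in 6 of the 9 windows, those of Phgdh, Psph, Mthfd2, Shmt1, Mthfd1 and the Psat1 window shown, and in 33.8% of the 32851 windows of that length in the table. Mthfd2 held 3 copies, at 96, 47 and 22 bases before the start site of its window, and Shmt2 and Mthfd1l held none. The Mthfd2 window lies inside the annotated span of the gene (chr6:83305704-83326011). The Mthfd1 window (chr12:76254982-76255231) also lies inside the span of its gene (chr12:76254406-76319820), as does the Psat1 window not shown. Those of Psph and Mthfd1l reach partly into the spans of their genes. The start sites of these windows are therefore not the outermost ones of those spans. The other motifs searched on both strands were the E-box CACGTG, a kind of site to which DEC1 binds, the element TGATGNAA bound by ATF4 complexes, and the E2F-type words TTTCGCGC and TTTGGCGC. They stood in 0 of the 9 windows, and in 6.02%, 3.45%, 0.256% and 0.417% of all windows. A match is only a description of the letters, and a missing one says nothing of the factor.

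The deposited values are RMA log2 signals, and their array medians lay between 6.64 and 6.97. Bhlhe40 lay at 7.00 to 8.02 in WT_CD3, at 8.55 to 10.07 in WT_CD3CD28 and at 5.18 to 6.07 on the 8 knockout arrays, so the genotypes did not overlap under either stimulus. Cd3e and Cd4, which define the labelled cell type, lay at or above the 93.5 percentile of all probes on each of the 16 arrays. Replicates 1 and 2 tended to lie above replicates 3 and 4 in the enzymes: 8 of the 9 genes had a higher mean deviation from the group means in the former, by most in Shmt2 (0.44 against -0.44) and with Psph the exception (-0.03 against 0.03). The labels name no batch for these sets. Xist, the RNA that coats the inactive X chromosome, was high in the 6 arrays of WT replicate 1 and KO replicates 2 and 4. It ranged from 10.44 to 11.36 there and from 5.09 to 5.80 in the remaining 10. Both stimuli of a replicate within a genotype shared the Xist state. The replicates of a genotype did not, so they did not all come from the same mouse or pool of mice. Replicate numbers 1, 2 and 4 each join WT and KO arrays of unlike Xist state, also where the number served as a block.

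CD28 costimulation of wild-type cells raised 7 of the 9 enzymes relative to anti-CD3 alone. The rises ran from 1.43-fold in Psph to 2.45-fold in Mthfd2, in both arms of the pathway and in both compartments. Shmt2 differed in the same direction without passing the test, and Aldh1l2 stayed at a dim signal. Of all genes tested, 29% were called in this comparison, and 16% were higher (limma, Benjamini-Hochberg adjusted p under 0.05). The members' median log2 difference was 0.92, against -0.03 over all genes tested.

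Psat1, the aminotransferase of serine synthesis, read 9.86, 9.86, 10.02 and 9.57 in WT_CD3 replicates 1 to 4, and 11.08, 11.18, 10.83 and 10.64 in WT_CD3CD28. All 4 costimulated arrays lay above all 4 arrays with anti-CD3 alone. The log2 difference was 1.11 (SE 0.14, adjusted p = 1.81e-05), a 2.15-fold rise. Phgdh, the first enzyme of the route, read 8.70, 8.86, 8.83 and 8.49 under anti-CD3 and 9.76, 9.96, 10.05 and 8.79 with anti-CD28. Replicate 4 of the costimulated group overlapped the other group. Phgdh rose by 0.92 (SE 0.26, adjusted p = 0.0126), and with replicates 3 and 4 alone the difference was 0.76 with an adjusted p of 0.163. Psph, the phosphatase that ends the route, rose by 0.52 (SE 0.13, adjusted p = 0.00429), from 9.13 ± 0.16 (SD, n = 4) to 9.65 ± 0.26, also with an overlap at replicate 4; with replicates 3 and 4 alone it differed by 0.31 (adjusted p = 0.312).

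Both cytosolic folate enzymes rose. Mthfd1, a trifunctional enzyme that activates formate and interconverts folates, read 9.16, 9.18, 9.15 and 8.70 in WT_CD3 and 10.49, 10.42, 10.03 and 9.80 in WT_CD3CD28. The groups stood apart, with replicate 4 lowest in both. Its log2 difference was 1.14 (SE 0.19, adjusted p = 0.000248). Shmt1 rose by 1.08 (SE 0.14, adjusted p = 2.59e-05), from 8.99 ± 0.25 (SD, n = 4) to 10.06 ± 0.23, and its groups stood apart as well.

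The mitochondrial enzymes behaved less alike. Mthfd2, the dehydrogenase and cyclohydrolase that is low in most resting adult tissues, read 10.13, 10.08, 10.05 and 9.68 in WT_CD3 and 11.47, 11.38, 11.05 and 11.22 in WT_CD3CD28. Every costimulated array exceeded every array with anti-CD3 alone by more than the range within a group. Its log2 difference of 1.29 (SE 0.12, adjusted p = 3.78e-07) was the highest estimate among the 9 members. Mthfd1l, which releases formate, rose by 0.71 (SE 0.15, adjusted p = 0.00132), from 10.24 ± 0.19 (SD, n = 4) to 10.95 ± 0.15.

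Shmt2 read 9.98, 9.98, 9.92 and 9.51 in WT_CD3 and 11.04, 10.89, 10.85 and 9.51 in WT_CD3CD28. In replicates 1 to 3 it was higher with anti-CD28, and in replicate 4 both arrays read the same to 2 decimals. The log2 difference was 0.73 (SE 0.39, 95% interval -0.10 to 1.56, adjusted p = 0.191). Without WT_CD3CD28 replicate 4 it was 1.08 with an adjusted p of 0.0345, and with the replicate number as a block the same difference of 0.73 had an adjusted p of 0.0125. Aldh1l2, which oxidises 10-formyltetrahydrofolate in mitochondria, lay between the 28.8 and 39.9 percentiles of all probes over the 16 arrays and differed by 0.03 (95% interval -0.20 to 0.26, adjusted p = 0.877).

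**Figure D1:**
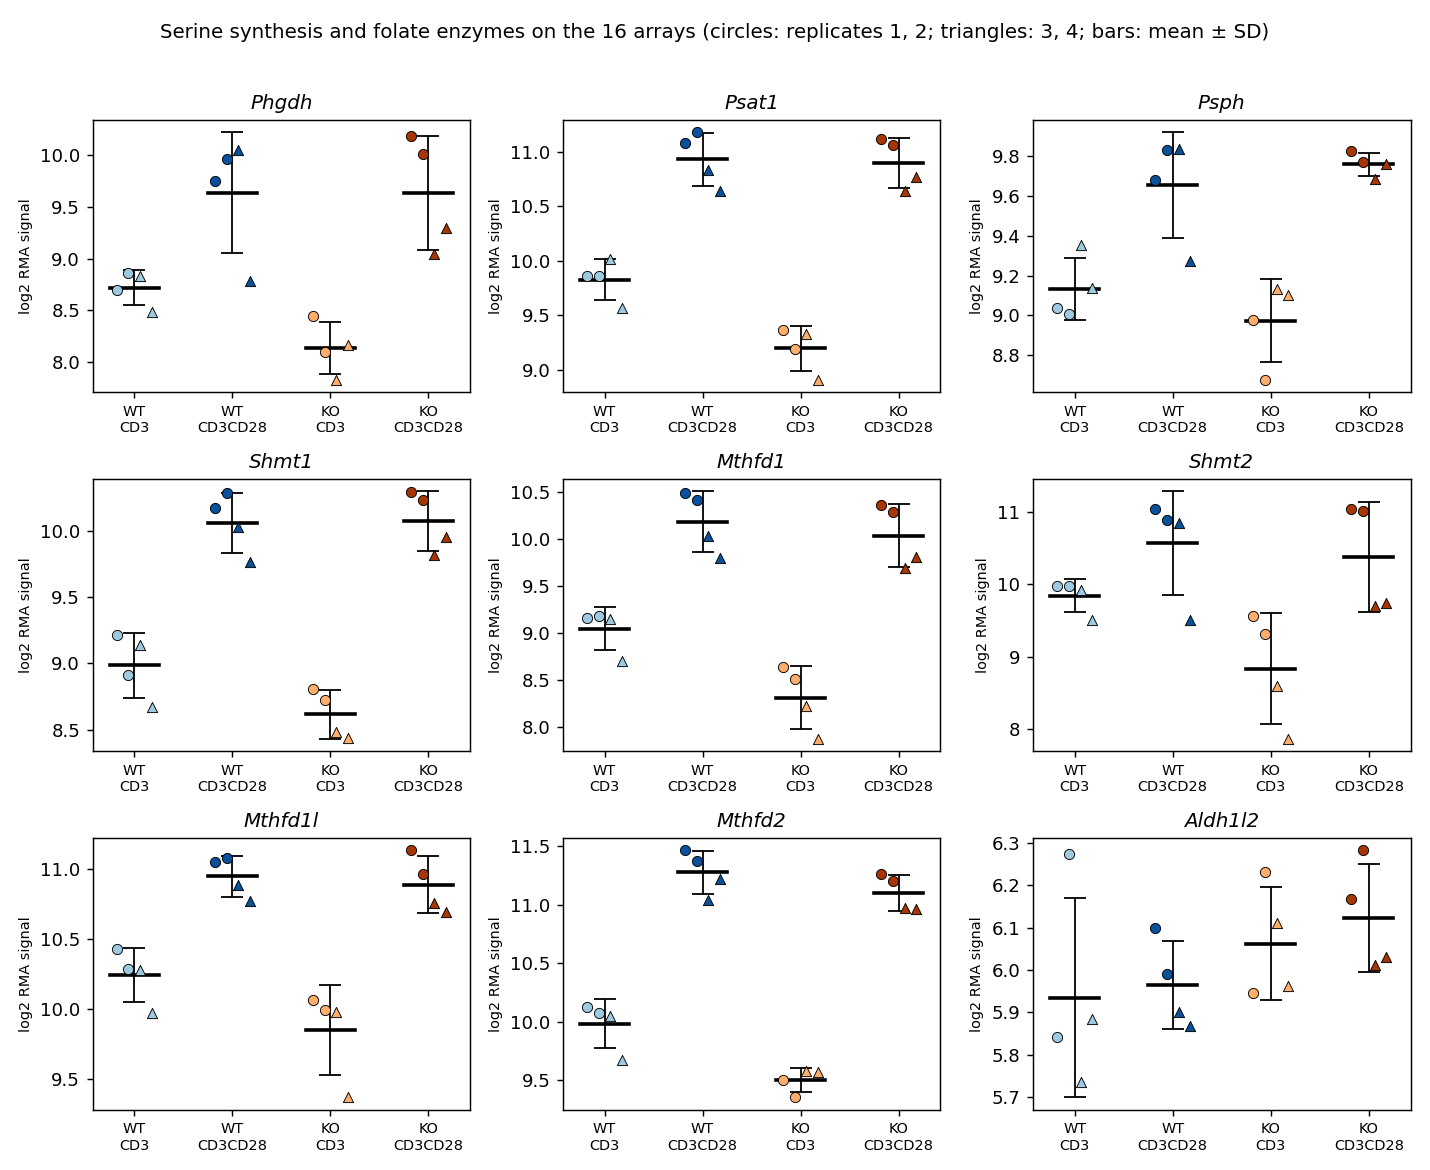
Log2 RMA signal (vertical axes, which differ between panels and do not start at 0) of the 9 enzymes in the 4 groups, with 1 point per array, circles for replicates 1 and 2, triangles for replicates 3 and 4, and bars for the mean ± SD of 4 arrays. In Psat1, Shmt1, Mthfd1, Mthfd1l and Mthfd2 the costimulated arrays lie above those with anti-CD3 alone in both genotypes, Shmt2 spreads from 7.87 to 11.04, and Aldh1l2 stays between 5.74 and 6.28.

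In knockout cells CD28 costimulation raised 8 of the 9 enzymes, and Aldh1l2 alone did not pass the test. The rises ran from 1.72-fold in Psph to 3.31-fold in Mthfd1, and the groups of all 8 did not overlap. In this comparison 38% of all genes tested were called, 20.4% were higher, 17.6% were lower and 34.9% had groups that did not overlap. The members' median log2 difference was 1.50, against -0.06 over all genes. Groups that did not overlap were seen in 5 members in wild type, where 30.4% of all genes had them.

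Mthfd1 read 8.63, 8.51, 8.23 and 7.87 in KO_CD3 and 10.37, 10.28, 9.69 and 9.81 in KO_CD3CD28. The lowest costimulated array was above the highest with anti-CD3 alone by over 1 log2 unit. It rose by 1.73 (SE 0.19, adjusted p = 2.31e-06). Psat1 read 9.37, 9.19, 9.33 and 8.91 in KO_CD3 and 11.12, 11.07, 10.64 and 10.77 in KO_CD3CD28, a rise of 1.70 (SE 0.14, adjusted p = 9.04e-08) or 3.25-fold. Mthfd2 read 9.50, 9.35, 9.58 and 9.57 against 11.26, 11.21, 10.98 and 10.97, a rise of 1.60 (SE 0.12, adjusted p = 1.67e-08). Replicates 1 and 2 were the higher pair among the costimulated arrays in all 3 of these genes.

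Shmt2 again spread most. It read 9.56, 9.32, 8.60 and 7.87 in KO_CD3 and 11.04, 11.01, 9.70 and 9.74 in KO_CD3CD28. Replicates 1 and 2 were over 0.7 log2 units above replicates 3 and 4 within each stimulus, and each costimulated array exceeded every array with anti-CD3 alone. The rise was 1.54 (SE 0.39, adjusted p = 0.0051). Phgdh rose by 1.50 (SE 0.26, adjusted p = 0.000214), from 8.13 ± 0.25 (SD, n = 4) to 9.63 ± 0.55. Shmt1 rose by 1.46 (SE 0.14, adjusted p = 5.31e-07), Mthfd1l by 1.04 (SE 0.15, adjusted p = 2.71e-05) and Psph by 0.79 (SE 0.13, adjusted p = 9.62e-05). Aldh1l2 differed by 0.06 (95% interval -0.17 to 0.29, adjusted p = 0.692).

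The estimate of the CD28 effect was larger in knockout than in wild type for all 9 members, but the comparison of the effects themselves called none of them. Their median interaction was 0.39 on the log2 scale, against 0.00 over all genes. Psat1 had an interaction of 0.59 (SE 0.20, unadjusted p = 0.00911, adjusted p = 0.905) and Mthfd1 one of 0.59 (SE 0.27, unadjusted p = 0.0463, adjusted p = 0.905). These 2 were the members with an unadjusted p under 0.05. limma called 0 genes in all for the interaction (0% of those tested), and 867 genes or 5.28% had an unadjusted p under 0.05. The wild-type and knockout effects come from separate arrays, but the interaction is made of the same 16 arrays as the genotype comparisons.

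Under anti-CD3 alone, Psat1 was the member that passed the test between genotypes, lower in knockout by 0.63 on the log2 scale or 1.54-fold. Its arrays read 9.57 to 10.02 in WT_CD3 and 8.91 to 9.37 in KO_CD3 and did not overlap (log2 difference -0.63, SE 0.14, adjusted p = 0.0473). Of all genes tested 1.03% were called here, 0.749% as lower and 0.28% as higher. The call of Psat1 was at the edge. It was lost in 12 of 16 fits that left out 1 array (adjusted p up to 0.174). Some of the 12 left out a costimulated array, outside this comparison. There the difference stayed at -0.63 and the adjusted p was at most 0.0571. The call was also lost with the Xist level as a covariate (difference -0.62, adjusted p = 0.0753) and after a further quantile normalization (-0.54, 0.0685). Without the filter on dim probes (-0.63, 0.0521) and with replicates 3 and 4 alone (difference -0.68, adjusted p = 0.199) it was lost as well.

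The other members had differences between -1.01 in Shmt2 and 0.13 in Aldh1l2, with 8 of the 9 estimates below 0 and a median of -0.48, against 0.03 over all genes. Mthfd2 differed by -0.48 (SE 0.12, adjusted p = 0.0522), and it was called without KO_CD3 replicate 3 (0.0455), WT_CD3 replicate 4 (0.0349) or WT_CD3CD28 replicate 4 (0.0489). Mthfd1 differed by -0.74 (SE 0.19, adjusted p = 0.07). Phgdh differed by -0.59 (SE 0.26, adjusted p = 0.188), Shmt2 by -1.01 (SE 0.39, adjusted p = 0.146), Mthfd1l by -0.39 (SE 0.15, adjusted p = 0.136; -0.23 without KO_CD3 replicate 4, its lowest array) and Shmt1 by -0.37 (SE 0.14, adjusted p = 0.144). Psph, at -0.16 (SE 0.13, adjusted p = 0.424), and Aldh1l2 (0.13, SE 0.11, adjusted p = 0.462) had intervals that included 0. The groups of 4 members, Phgdh, Psat1, Mthfd1 and Mthfd2, did not overlap, with knockout lower; 14.7% of all genes had groups that did not overlap in this comparison.

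With the replicate number as a block, 6 members were called lower in knockout instead of 1, while 1954 genes were called in place of 169. Adjusted p-values under the block were 0.00501 for Psat1, 0.00198 for Mthfd1, 0.0141 for Mthfd2, 0.0129 for Shmt2, 0.0157 for Mthfd1l and 0.028 for Shmt1. With replicates 1 and 2 alone 5 members were called, where 1388 genes were called in all. With replicates 3 and 4 alone it was 0 of 9, where 0 genes were called in all. The difference of Mthfd2 was -0.68 in the former set and -0.29 in the latter, that of Shmt2 -0.54 and -1.48.

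Under anti-CD3 plus anti-CD28 no member passed the test between genotypes. The differences ran from -0.20 in Shmt2 to 0.16 in Aldh1l2, with 6 below 0 and 3 above, and the groups stood apart in 0 of the 9, against 2.75% of all genes. In this comparison limma called 0.00609% of all genes tested, which is the 1 gene Bhlhe40, and 545 genes or 3.32%, none of them a member, had an unadjusted p under 0.05. The 95% intervals were -0.33 to 0.27 for Psat1 and -0.42 to 0.07 for Mthfd2. For Shmt2 the interval ran from -1.03 to 0.63, so that it held a difference of 1.5-fold in either direction.

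Levels thus ran in the same order in 8 of the 9 enzymes, with KO_CD3 lowest, WT_CD3 next and both costimulated groups highest. The costimulated groups did not differ beyond their spread in any enzyme. The step from KO_CD3 to WT_CD3 passed the test in Psat1 without the replicate block and in 6 enzymes with it, as given above. Aldh1l2 had no step that passed.

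**Figure D2:**
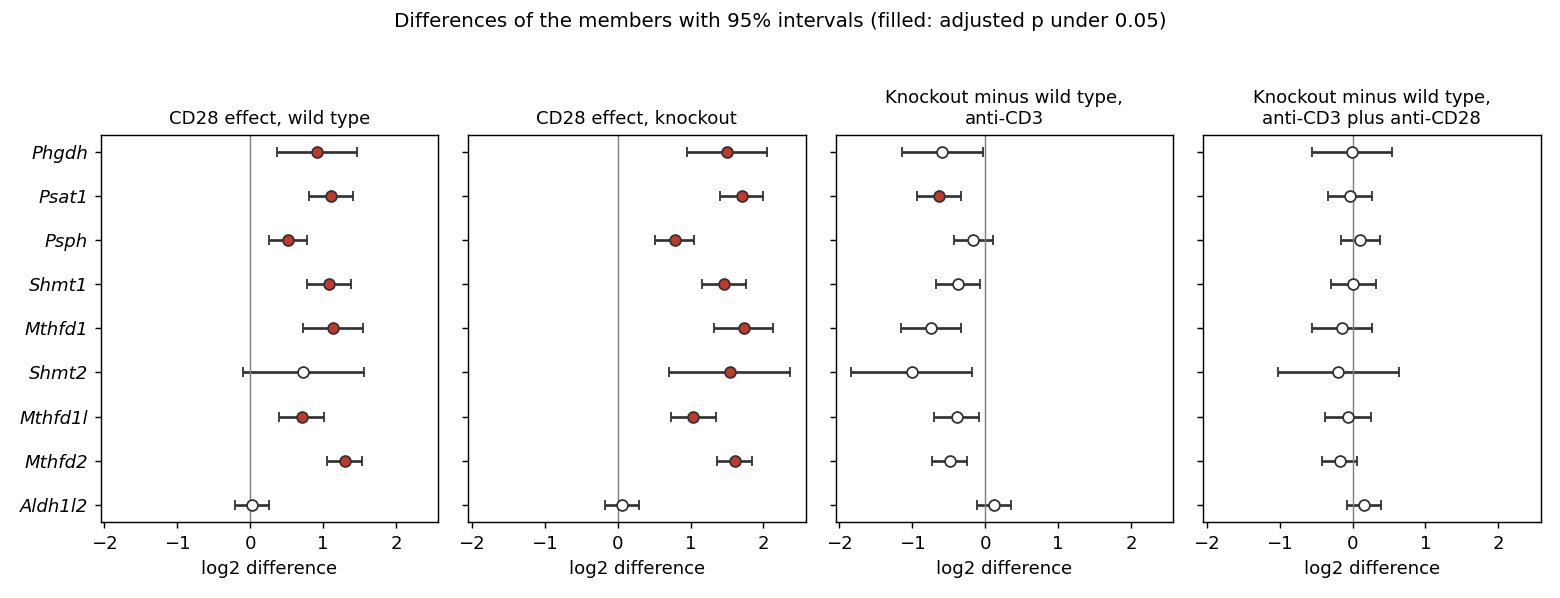
Log2 differences of the 9 enzymes (horizontal axis) with 95% intervals from limma in 4 comparisons over 4 arrays per group, filled where the adjusted p was under 0.05. The estimated CD28 effects of all enzymes but Aldh1l2 lie from 0.52 to 1.73 in both genotypes. Their intervals lie above 0 except that of Shmt2 in wild type (-0.10 to 1.56). Under anti-CD3 plus anti-CD28 all intervals between genotypes include 0.

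Mitochondrial and cytosolic enzymes of the same step were compared within each array, where a scaling factor common to both probes cancels. Scaling that depends on the signal level does not cancel. The ratio of Mthfd1l to Mthfd1 was lower on each of the 8 costimulated arrays than on any array with anti-CD3 alone. Relative to the WT_CD3 mean, its log2 ratio read -0.63, -0.53, -0.34 and -0.22 in WT_CD3CD28, 0.24, 0.29, 0.56 and 0.30 in KO_CD3, and -0.42, -0.51, -0.13 and -0.31 in KO_CD3CD28. The mean ratio differed with CD28 by -0.43 (SE 0.10) in wild type and by -0.69 (SE 0.11) in knockout. Each had a two-sided exact permutation p of 0.0286, the smallest that 4 against 4 arrays can give, and 0.0857 after adjustment over the 12 ratios tested, which does not pass 0.05. The same adjusted value was found between genotypes under anti-CD3 for Mthfd1l over Mthfd1 (0.35, SE 0.08) and for Shmt2 over Shmt1 (-0.64, SE 0.30). Without KO_CD3 replicate 4 the latter was -0.37, and over all fits without 1 array it ran from -0.81 to -0.37, with adjusted exact permutation p-values up to 0.514.

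The other ratios had adjusted exact permutation p-values from 0.274 to 0.886. Shmt2 over Shmt1 differed with CD28 by -0.35 (SE 0.27) in wild type and 0.07 (SE 0.40) in knockout. In WT_CD3CD28 that ratio was between -0.26 and 0.01 relative to WT_CD3 in replicates 1 to 3 and at -1.11 in replicate 4. Mthfd2 over Mthfd1 differed by 0.16 (SE 0.11) in wild type and -0.12 (SE 0.23) in knockout. A ratio shows unequal change of the 2 transcripts and not which of them moved.

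**Figure D3:**
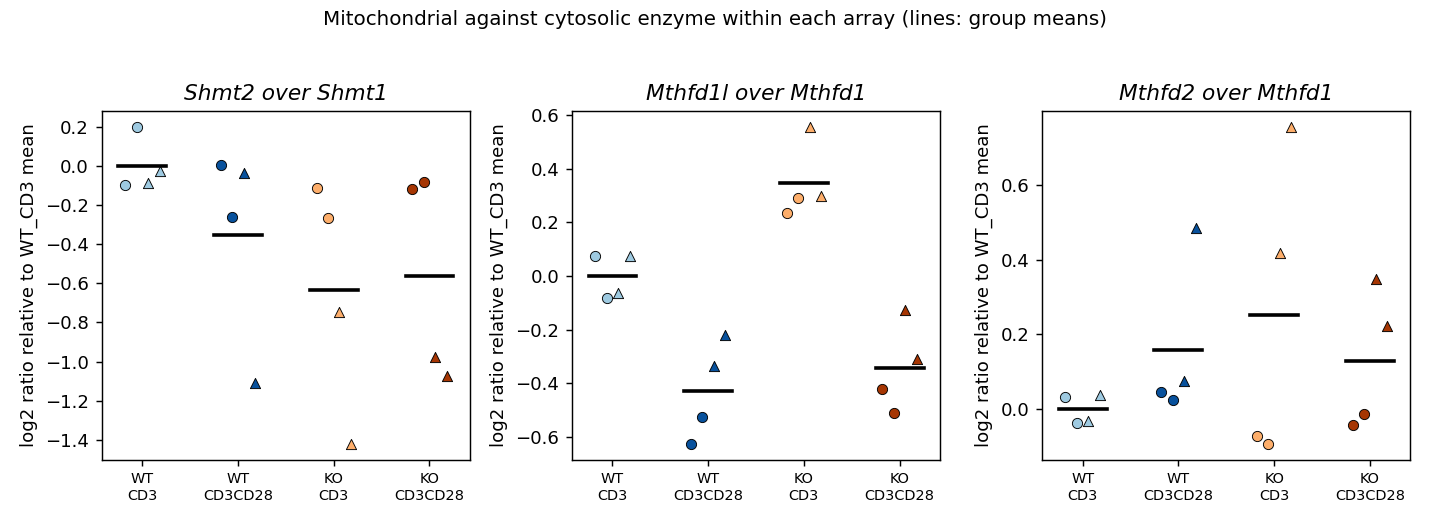
Within-array log2 ratio of a mitochondrial to a cytosolic folate enzyme (vertical axis, relative to the mean of WT_CD3) on the 16 arrays, with circles for replicates 1 and 2, triangles for replicates 3 and 4 and lines for group means. For Mthfd1l over Mthfd1 the costimulated arrays lie from -0.63 to -0.13, below all arrays with anti-CD3 alone.

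With CD28, genes that neighbour these enzymes in metabolism were called about as often as genes at large when both directions were counted together. Of 38 listed genes of the folate cycle, glycine cleavage, the methionine cycle, transport and serine use, 31 were tested; the lists were drawn up with earlier results of these data known. In wild type CD28 raised 9 and lowered 2 of the 31, with a median log2 difference of 0.14, and in knockout it raised 10 and lowered 3, with a median of 0.10. The called share in either direction was thus 35.5% in wild type, beside 29% of all genes tested, and 41.9% in knockout, beside 38%. These shares say nothing particular of the route as a whole. By direction, the calls leaned more to rises than those of genes at large. Of all genes tested, 16% were higher and 13% lower in wild type, and 20.4% and 17.6% in knockout. Between genotypes under anti-CD3, 2 were lower in knockout, a called share of 6.45% beside 1.03% of all genes tested. Both calls were lost in most fits without 1 array, as given below. Under anti-CD3 plus anti-CD28 or for the interaction, 0 were called in limma.

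Several folate users rose with CD28. Tyms, thymidylate synthase, rose by 1.75 (SE 0.17, adjusted p = 6.82e-07) in wild type and by 2.44 (SE 0.17, adjusted p = 9.26e-09) in knockout. The purine synthesis enzymes that take 10-formyltetrahydrofolate rose as well, Gart by 0.96 (SE 0.16) and 1.39 (SE 0.16) and Atic by 0.74 (SE 0.15) and 1.31 (SE 0.15). Mtr, methionine synthase, rose by 0.60 (SE 0.12) and 0.72 (SE 0.12). With replicates 3 and 4 alone Mtr was not called (0.55 in both genotypes, adjusted p = 0.0569 and 0.0512). Nor was Atic in wild type (0.62, adjusted p = 0.064). Tyms, Gart, Atic and Mtr were the 4 of 11 tested folate genes called in wild type with all arrays. In knockout Mtrr, which reactivates methionine synthase, was called as well, at 0.82 (SE 0.21, adjusted p = 0.00523).

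Of the transporters, 2 of 8 rose in wild type and 3 in knockout. Sfxn1, the mitochondrial serine carrier, rose by 1.06 (SE 0.15) and 1.64 (SE 0.15), and Slc25a32, the mitochondrial folate carrier, by 0.90 (SE 0.14) and 1.06 (SE 0.14). Slc38a1, a plasma membrane amino acid carrier, rose in knockout by 0.46 (SE 0.14, adjusted p = 0.0144), a call lost after a further quantile normalization (0.143) and without KO_CD3CD28 replicate 1 (0.055) or 2 (0.0513); without KO_CD3 replicate 4 it was 0.30 (0.0428). Slc1a5, another plasma membrane carrier, differed by -0.46 in wild type (SE 0.21, adjusted p = 0.12).

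Glycine cleavage did not move as a unit. Gcsh, the carrier protein of the complex, rose by 0.61 (SE 0.12) and 0.92 (SE 0.12) and Dld, a subunit shared with other dehydrogenases, by 0.51 (SE 0.11) and 0.63 (SE 0.11), while the aminomethyltransferase Amt fell by 0.41 (SE 0.09) and 0.35 (SE 0.09) on the log2 scale. Its fall in knockout was not called with each array centred on its median (adjusted p = 0.0976) or after a further quantile normalization (0.108). With replicates 3 and 4 alone neither Dld (adjusted p = 0.0603 in wild type and 0.0895 in knockout) nor Amt (0.0596 and 0.315) was called. Gldc, the decarboxylase, lay between the 34.3 and 41.8 percentiles of all probes and was not called in either genotype. Sptlc1, a subunit of serine palmitoyltransferase, which uses serine for sphingolipids, fell by 0.97 (SE 0.11, adjusted p = 4.47e-06) in wild type and by 0.61 (SE 0.11) in knockout. It was the 1 gene called of 5 tested in serine use.

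In the methionine cycle and transsulfuration, Cth, which makes cysteine, rose in wild type by 1.06 (SE 0.33, adjusted p = 0.0207) from between the 28.6 and 32.6 percentiles of all probes, and in knockout it differed by 0.77 (adjusted p = 0.0718). The wild-type call of Cth was lost in 3 of 16 fits without 1 array (WT_CD3 replicate 3 and WT_CD3CD28 replicates 1 and 2, adjusted p up to 0.0871), and with replicates 3 and 4 alone the difference was 0.33 (adjusted p = 0.139). Mat2b, a regulatory subunit of methionine adenosyltransferase, was called lower with CD28 in knockout by 0.30 (-0.30, SE 0.12, adjusted p = 0.0489). That call was lost in 13 of 16 such fits, with the value at -0.20 without KO_CD3 replicate 4. Some of the 13 left out a wild-type array, outside this comparison, and there the value stayed at -0.30 (adjusted p up to 0.0585).

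**Figure D4:**
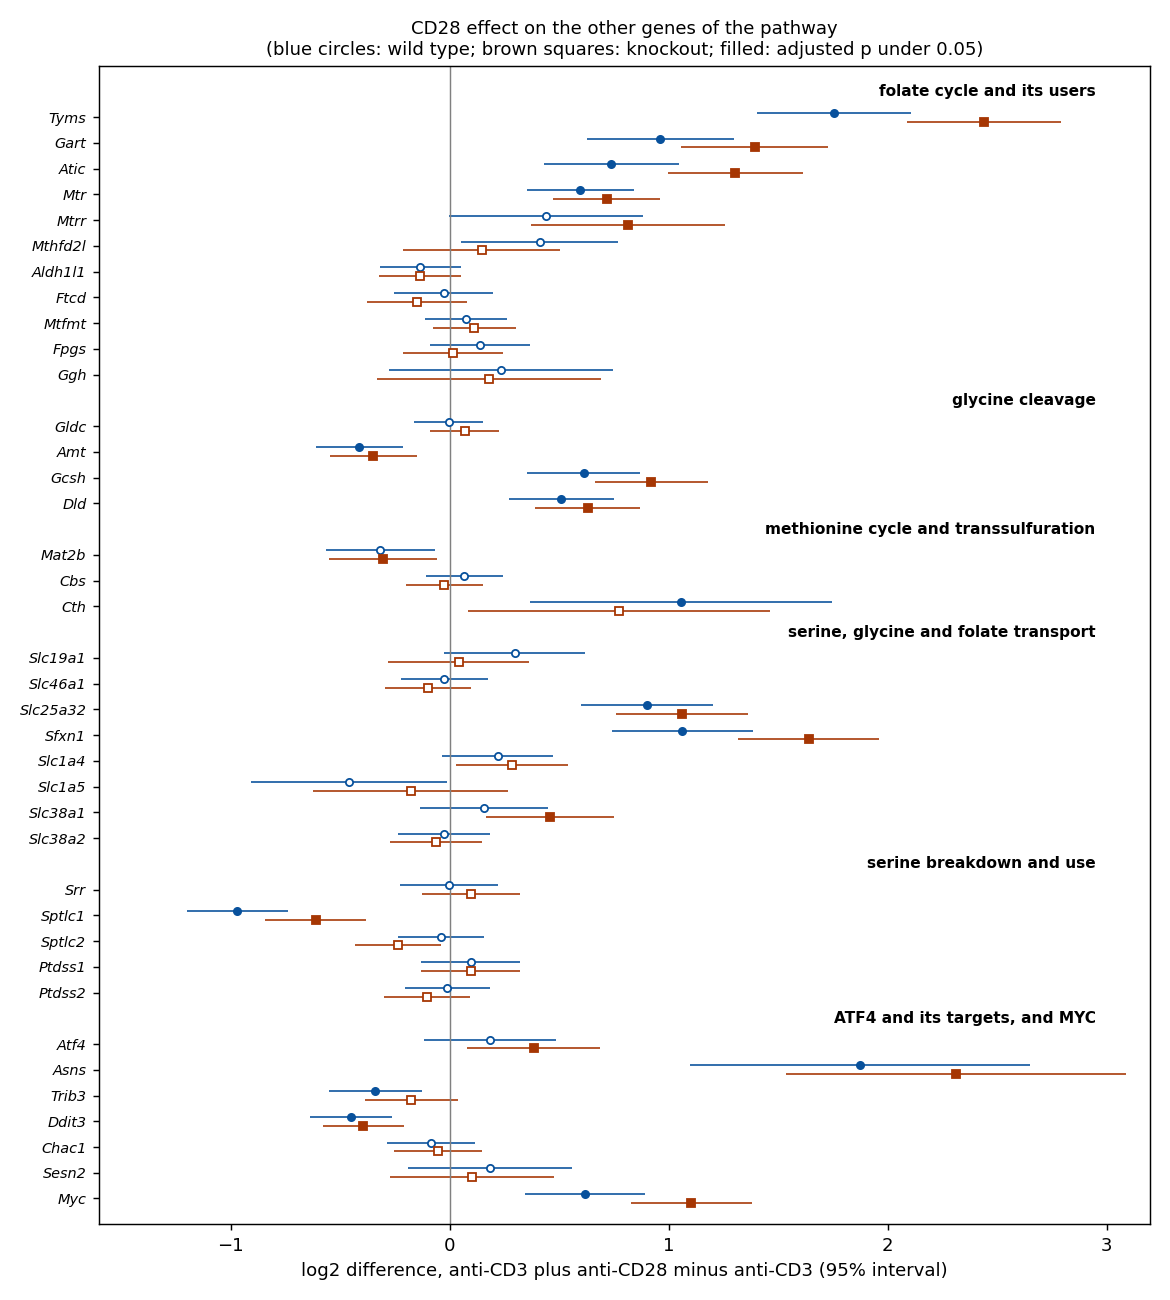
Log2 difference between anti-CD3 plus anti-CD28 and anti-CD3 alone (horizontal axis, with 95% intervals from limma, 4 arrays per group) for the 31 tested pathway genes and 7 regulators and stress genes, blue circles for wild type and brown squares for knockout, filled where the adjusted p was under 0.05. Tyms (1.75 and 2.44), Asns (1.88 and 2.31) and Sfxn1 (1.06 and 1.64) lie farthest to the right and Sptlc1 (-0.97 and -0.61) farthest to the left.

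Of 7 regulators and stress genes, Myc and the ATF4 target Asns rose with CD28 in both genotypes. None of Ddit3, Trib3, Chac1 and Sesn2, also known as ATF4 targets, was called higher. The list does not cover all ATF4 targets, and the activity of ATF4 was not tested. Myc, a transcription factor of growth, rose by 0.62 (SE 0.13, adjusted p = 0.00146) in wild type and 1.10 (SE 0.13, adjusted p = 3.83e-06) in knockout. Asns, asparagine synthetase, rose by 1.88 (SE 0.37) and 2.31 (SE 0.37). Ddit3 fell by 0.45 (SE 0.09) and 0.39 (SE 0.09); with centred arrays its difference in knockout was -0.26 and not called (adjusted p = 0.053). Trib3 fell in wild type by 0.34 (SE 0.10, adjusted p = 0.0169). That call was lost in 3 of 16 fits without 1 array (WT_CD3 replicates 2 and 4 and WT_CD3CD28 replicate 1). It was also lost after a further quantile normalization (-0.25, adjusted p = 0.0508) and with replicates 3 and 4 alone (-0.24, adjusted p = 0.355). Atf4 itself differed by 0.18 (SE 0.14, adjusted p = 0.389) in wild type and rose in knockout by 0.38 (SE 0.14, adjusted p = 0.0431). The knockout call was lost in 10 of 16 fits without 1 array (adjusted p up to 0.145). Some of the 10 left out a wild-type array, and there the knockout difference of Atf4 stayed at 0.38 (adjusted p up to 0.0527). Its difference in knockout was 0.19 after a further quantile normalization (adjusted p = 0.294) and 0.12 with replicates 3 and 4 alone (adjusted p = 0.669). In wild type Atf4 was called without WT_CD3CD28 replicate 4, at 0.34 (adjusted p = 0.0386).

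Under anti-CD3 alone, Tyms (-0.75, SE 0.17, adjusted p = 0.0424), Sfxn1 (-0.68, SE 0.15, adjusted p = 0.0436) and Myc (-0.60, SE 0.13, adjusted p = 0.0421) were lower in knockout. The calls of Tyms and Sfxn1 were each lost in 12 of 16 fits without 1 array (adjusted p up to 0.174 and 0.171), and that of Myc in 11 (up to 0.141). Some of these fits left out a costimulated array, which changed no difference in this comparison. After a further quantile normalization the calls were lost too (adjusted p = 0.0628 for Tyms, 0.0579 for Sfxn1 and 0.109 for Myc). With replicates 3 and 4 alone they were lost as well (0.229, 0.241 and 0.199). With the Xist level as a covariate the differences were about as large, at -0.76, -0.67 and -0.62, with adjusted p-values of 0.0713, 0.0735 and 0.0572. Atic (-0.60, adjusted p = 0.0542) and Gart (-0.55, adjusted p = 0.0871) did not pass, and with the replicate number as a block they did (0.00576 and 0.0073), when 7 pathway genes were called in place of 2.

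The patterns most like those of single enzymes came from genes outside the route. Likeness was measured as the root mean square difference of log2 values over the 16 arrays after each gene's own mean was removed. With 9 members among 16427 genes, a nearest gene outside the route is likely for any enzyme. The measure also depends on how far a gene moved, not only on the shape of its pattern. Mrpl45 was nearest to Psat1 (0.09), Smyd2 to Mthfd1 (0.11), Cbwd1 to Mthfd2 (0.11) and Pold2, a subunit of DNA polymerase delta, to Shmt2 (0.16), followed there by Cad (0.17) and Srm (0.19). Eif3b was nearest to Mthfd1l (0.08), Utp11 to Psph (0.08), Lyar to Shmt1 (0.12) and Lonp1 to Phgdh (0.21). Among the members, Psat1 and Mthfd1 were nearest to each other, at 0.13, where Psat1 ranked 5 among all genes nearest to Mthfd1 and Mthfd1 ranked 7 for Psat1. For Psph the nearest member, Mthfd1l, ranked 2587, and for Aldh1l2, whose nearest gene was Lca5l (0.07), the nearest member, Psph, ranked 13574. These 2 had the smallest ranges over the arrays, 1.16 and 0.55, against 1.77 to 3.17 in the other members. Their ranks therefore reflect small movement as well as shape.

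Markers of cells that the sort could carry along moved with the stimulus, as did T cell markers. Of 8 tested T cell markers, 4 fell in wild type and 3 in knockout, and of 4 tested CD8 T and NK cell markers 3 rose and 1 fell in both. In wild type, 3 of 6 tested B cell markers and 3 of 9 tested myeloid and dendritic cell markers fell with CD28, and in knockout 4 and 5. Of all genes tested, 13% fell and 16% rose in wild type, and 17.6% fell and 20.4% rose in knockout. The mean level of the B cell list was 6.29 to 6.81 under anti-CD3 and 5.98 to 6.23 with anti-CD28 over both genotypes, that of the myeloid list 6.22 to 6.79 and 5.95 to 6.12, and that of the T cell markers 11.16 to 11.53 and 10.80 to 11.11. The tested CD8 T and NK cell markers were brighter than the B cell and myeloid lists, at 8.02 to 8.56 and 7.60 to 8.23. Cd8b1, which rose, lay at or above the 75.4 percentile of all probes on every array. Klrd1, the 1 that fell, went from a mean of 9.36 to 5.93 in wild type and from 10.28 to 6.56 in knockout. The NK cell markers Ncr1 and Klrb1c and the granzyme Gzma were too dim to test. Their part in the CD28 effects was not tested; between genotypes no gene of the marker lists was called. In such bulk samples fewer cells of a kind and less RNA per cell cannot be told apart.

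Scaling bears on all of these differences, since RMA gives every array the same distribution of probe values before summary. With every array centred on its own median, the median CD28 effect over all genes went from -0.03 to 0.06 in wild type and from -0.06 to 0.07 in knockout. The share of called genes that were higher went from 55.1% to 69.3% in wild type and from 53.8% to 75%, and between genotypes under anti-CD3 from 27.2% to 4.98%. The members called in the CD28 comparisons kept their direction and their call under this setting.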

How the data were processed

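Per the submitters' processing notes, the deposited log2 values are RMA summaries, made after background correction and quantile normalization of the arrays; the RMA version and the genome build of the array are not given in the sources used here. Per the labels' protocols, RNA was taken with Trizol and biotin-labelled at a core facility. The table holds 35556 probes on 16 arrays, and 0 of its sample columns were left out; the number of arrays limits the precision. A probe with a single gene symbol was kept if it exceeded the 25 percentile of its array on at least 4 arrays, and where a gene had several, the one brightest on average was used. All 16427 genes were fitted with limma 3.58.1 (R 4.3.3) as 4 group means with moderated variances (12 residual degrees of freedom), with Benjamini-Hochberg adjustment over all genes and a threshold of 0.05. SE and 95% intervals come from this fit. Ratios were tested by exact two-sided permutation. The limma and permutation steps were checked on simulated data. Figures were made with Python 3.11.15 and matplotlib 3.10.9.

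Deviations from the group mean of arrays with the same replicate number correlated across genes at 0.16 to 0.59 in the 4 pairwise comparisons, every pair above 0.1, so the fit with the replicate number as a block was run beside the main one. Named are the 9 members, up to 4 genes of each pathway list per comparison by smallest p, and the nearest genes by pattern; Mtrr, Chac1 and Sesn2 were named after their values were seen. The members and lists were chosen with earlier results of these data known. Alternatives covered scaling, filter, probe choice, variance model, array weights, the block, subsets of arrays and the Xist level; those for the pathway and regulator genes were added after the data were seen.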

Additional observations from a re-analysis of the deposited data

Results flagged for a closer look

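In 5 of 36 sets of 4 arrays (9 enzymes in 4 groups) 1 array lay apart from the other 3, with a gap above the 95% critical value of Dixon's test. Chance flags about 1 set in 20. The sets are not independent, since the 9 enzymes were read on the same arrays, so the 5 flags are not separate evidence. All 5 were replicate 4 and were the lowest of their set. Mthfd1 was at 8.70 in WT_CD3 replicate 4, with the next array at 9.15. Shmt2 was at 9.51 in WT_CD3 replicate 4 (next 9.92) and at 9.51 in WT_CD3CD28 replicate 4 (next 10.85). Mthfd2 was at 9.68 in WT_CD3 replicate 4 (next 10.05), and Mthfd1l at 9.37 in KO_CD3 replicate 4 (next 9.98).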

How the results depend on the processing

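Over all alternatives, 241 refits of a member's CD28 effect in knockout kept direction and call and 1 reversed. In wild type 233 kept both, 3 reversed, 2 lost the call and 4 gained it. Many of these refits could not turn a direction, so the tallies overstate how far directions were tried. Leaving out an array of a group not compared, the block, the variance model and the probe choice all leave a member's estimate as it is. Limits and changes follow as counts called or log2 differences. All genes called with replicates 3 and 4 only, where fewer arrays are fitted, were 2896 for CD28 in knockout (6245 with all arrays) and 2650 in wild type (4770), with 7 pathway genes in place of 11. Between genotypes under anti-CD3, in place of 169 genes, 1 member and 2 pathway genes, the calls were 597 genes and 2 members with array weights, 261 and 2 with centred arrays, 1388, 5 members and 6 pathway genes with replicates 1 and 2 only, 49, 0 and 0 with the Xist level as a covariate, and 0, 0 and 0 with replicates 3 and 4 only. Members called were 0 without the filter on dim probes, and 0, with 0 pathway genes, after a further quantile normalization. With the replicate number as a block, 1954 genes, 6 members and 7 pathway genes were called there, and Shmt2 was called for CD28 in wild type; the block changed no other member's call. Leaving out 1 array gave 7 genes (without WT_CD3 replicate 3) to 452 genes (without KO_CD3 replicate 3), 0 to 2 members and 0 to 3 pathway genes. With replicates 1 and 2 only, 2 genes were called between genotypes under anti-CD3 plus anti-CD28 (1 with all), and 80 genes with 1 pathway gene for the interaction (0). The causes were not tested.

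Signs turned in the estimates below, and not all of these lay near 0 with all arrays. Shmt2 was at -0.20 between genotypes under anti-CD3 plus anti-CD28, and Mthfd2 over Mthfd1 at -0.12 with CD28 in knockout. The difference of Atf4 with all arrays is given above. Aldh1l2 turned with CD28 in knockout with replicates 3 and 4 only (-0.016), in wild type with replicates 1 and 2 only (-0.013) and without 1 array (-0.036 to 0.14), and for the interaction with replicates 3 and 4 only (-0.090) and without 1 array (-0.083 to 0.096). Atf4 with CD28 in wild type was at -0.046 with replicates 3 and 4 only. Between genotypes under anti-CD3 plus anti-CD28, Phgdh turned with array weights (0.00086), after quantile normalization (0.021) and with replicates 1 and 2 only (0.24). Shmt1 turned there with array weights (-0.0051), centring (-0.032), replicates 3 and 4 only (-0.0092) and the Xist covariate (-0.0083), and Shmt2 with replicates 1 and 2 only (0.066). Without 1 array these differences ran from -0.29 to 0.19 in Phgdh, -0.087 to 0.099 in Shmt1, -0.55 to 0.027 in Shmt2, -0.13 to 0.053 in Psat1, -0.022 to 0.17 in Psph and -0.14 to 0.0053 in Mthfd1l. Within-array ratios without 1 array ran from -0.19 to 0.25 for Shmt2 over Shmt1 and -0.24 to 0.045 for Mthfd2 over Mthfd1 with CD28 in knockout, and from -0.10 to 0.080 for Mthfd2 over Mthfd1 between genotypes under anti-CD3 plus anti-CD28.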

Other observations

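Phgdh has a second probe, which the probe table also gives to Gm6756 and which was therefore not tested. It read 8.40 ± 0.17 (SD, n = 4) in WT_CD3, 9.36 ± 0.59 in WT_CD3CD28, 8.09 ± 0.08 in KO_CD3 and 9.19 ± 0.62 in KO_CD3CD28. The costimulated arrays overlapped those with anti-CD3 alone in wild type, at 8.48 for the lowest against 8.58 for the highest, and stood apart in knockout. Between genotypes under anti-CD3 its arrays overlapped slightly (8.21 to 8.58 against 8.03 to 8.21), where those of the probe of Phgdh alone did not (8.49 to 8.86 against 7.83 to 8.44).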
